A study of Mus musculus with 12 samples.

Results

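The endothelial genes followed in the mouse pituitary, 10 in all, mark the lining of blood vessels: Pecam1, Cdh5, Esam, Cldn5, Kdr, Flt1, Tek, Tie1, Robo4 and Emcn. They were found by gene name, or a synonym of it, among the non-control probes of the array. This gave 13 probes for the 10 genes, of 39429 probes in all, and 12 of the 13 were bright enough to keep. The samples were pituitaries of 12 adult female C57BL/6J mice aged 2 months, 4 per diet. One group received a normal diet (control), one a vitamin D-deficient diet restricted to early life, and one the same kind of deficient diet restricted to the peripubertal period. No genotype or other agent separates the groups, and the pituitary was taken whole, so a lower signal in this bulk RNA can mean fewer endothelial cells or less RNA per cell, which cannot be told apart here.

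Endothelial cells form the inner wall of vessels, and in the pituitary they build the fenestrated capillaries that carry hormones into the blood. Their growth and stability are set largely by receptor tyrosine kinases. Kdr (VEGF receptor 2) passes on the main growth signal of the ligand Vegfa, Flt1 (VEGF receptor 1) binds the same ligand and largely restrains it, and Tek and Tie1 form the receptor pair that responds to the angiopoietins and keeps vessels quiescent. Robo4 is an endothelial receptor of the Robo family that steadies the barrier.

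Kdr was measured by a pair of probes, and they gave opposite answers, so their first 30 bases of 60 are shown with those of the receptors Kdr was compared with. All are written 5′ to 3′ from the array's own design, in lower case throughout because no part is singled out.

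Kdr, single-spot probe: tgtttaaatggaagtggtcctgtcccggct
Kdr, 10-spot probe: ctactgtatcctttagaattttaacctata
Tek: aacaccacactgtatgagaagtttacctat
Tie1: gtgaacatgtcgctgtttgagaacttcacc
Robo4: tattctcattctaccgccactctgagctta

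Both Kdr probes lie on the minus strand of chromosome 5 in the mm9 build, where the array design places them, with starts 1086 bases apart. The single-spot probe is at chr5:76330395-76330454 and the 10-spot probe at chr5:76329309-76329368. The single-spot probe is 55.0% G and C and the 10-spot probe 35.0%, against a median of 43.3% over the 24605 kept probes. No probe of another gene shares a run of 16 bases with the single-spot probe, on either strand, and 1 shares such a run with the 10-spot probe. The Tek probe is at chr4:94540624-94540683, the Tie1 probe at chr4:118144132-118144191 and the Robo4 probe at chr9:37221547-37221606. Exon and untranslated-region positions on mm9 were not used here.

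Each array carried 2 mice of 1 diet, one in the Cy3 channel and one in the Cy5 channel, so 6 arrays held the 12 samples. Spots well above background made up 61.0% to 66.3% of each control channel. They made up 50.6% to 59.7% in early life and 57.9% to 67.2% in peripubertal mice. Spots set aside as outliers made up 1.68% to 1.90% of the control arrays. They made up 6.54% to 7.34% of the early life arrays and 3.85% to 5.08% of the peripubertal arrays. Both control arrays lay on 1 slide and the other 4 on a second slide, so the slide goes with the diet wherever controls are compared, and the effects of slide and diet cannot be told apart there. The early life and peripubertal groups shared a slide but no array, and the shares of spots above differed between their arrays. The part of this in the diet differences was not tested. A second deposited table of processed values carries these same deficient-diet channels under exchanged names: all 8 of its early life and peripubertal columns equal, within 1e-06 after a constant is taken off, the log2 of the median spot signal less local background in a scanned channel of the other deficient group. Groups follow the labels of the scanned arrays throughout, and with the names of that table every sign between the deficient diets would turn, and the differences from control given for early life and for peripubertal mice would change places.

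None of the 10 genes passed an adjusted p of 0.05 in any comparison (limma model with Benjamini-Hochberg adjustment over all genes). Across all genes the same rule called 0.0979% of 18387 for early life against control, 0.0213% of 18771 for peripubertal against control and 0.132% of 18242 for early life against peripubertal. These counts depend on single mice: the last, 24 genes, became 751 without early life mouse 3, 242 without control 3 and 6 without control 4, still with no member among them. By mean level most members were lower in the early life group: 8 of 10 had a negative log2 difference against control, with a median of -0.25, and 7 of 10 against peripubertal, with a median of -0.35. Over all genes the medians in those comparisons were 0.03 and 0.03, and 46.5% and 46.1% of genes were negative. Against control, 7 of 10 members were positive in the peripubertal group, with a median of 0.09 beside 0.01 over all genes, of which 48.6% were negative. These counts used the single-spot Kdr probe. With the 10-spot probe, 9 members were negative for early life against control (median -0.27) and 8 for early life against peripubertal (median -0.46). For peripubertal against control 2 were then negative (median 0.11). These comparisons share samples, so their signs are not separate evidence.

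**Figure D1:**
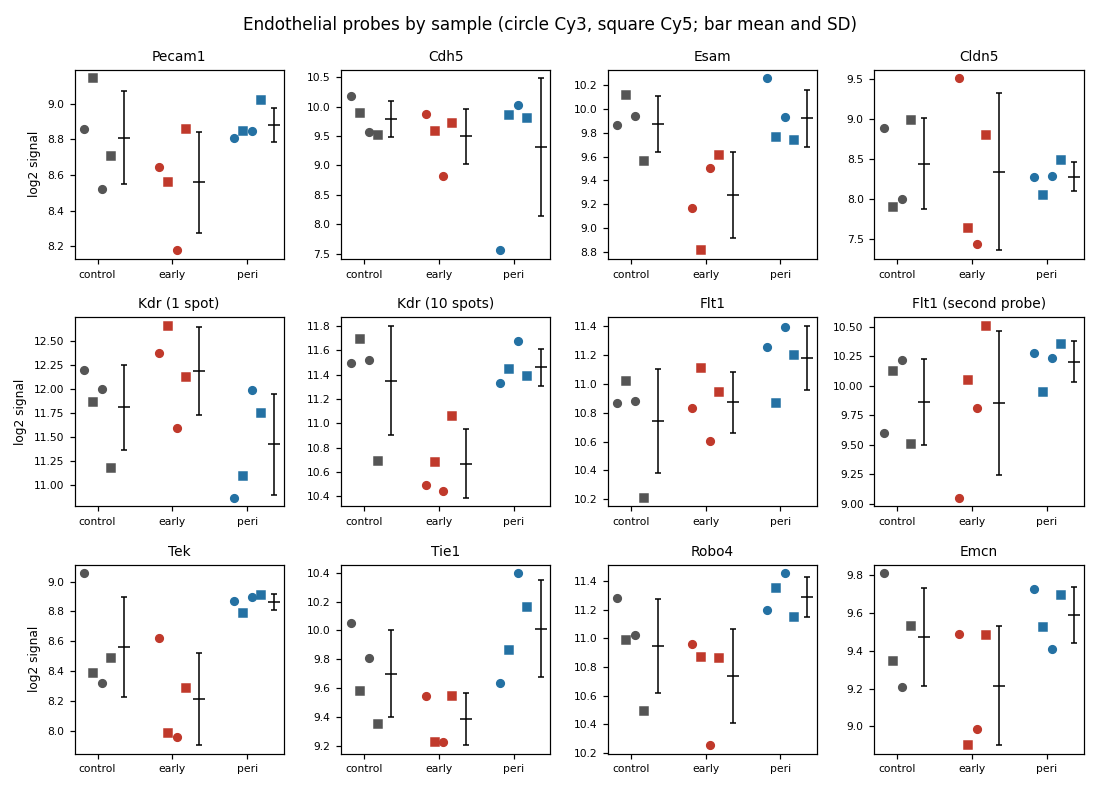
Normalized log2 signal of the 12 kept probes in each of the 12 mice, in panels by probe; grey is control, red early life and blue peripubertal, circles are Cy3 and squares Cy5, and bars give the mean and SD of 4 mice. In the Esam, Tek, Tie1 and Robo4 panels and that of the 10-spot Kdr probe the red points lie below all blue points. For the single-spot Kdr probe 3 of the red points lie above all blue points.

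Kdr by its single-spot probe, the brighter of the pair and therefore the one that stands for the gene, read 12.19, 11.86, 12.002 and 11.18 in the controls on the log2 scale. The early life mice read 12.37, 12.65, 11.59 and 12.12, and the peripubertal mice 10.87, 11.09, 11.98 and 11.74. Early life was the highest group by mean and peripubertal the lowest, and the groups overlapped. The log2 difference was 0.38 (SE 0.36, adjusted p = 0.618) for early life against control, -0.38 (SE 0.36, adjusted p = 1.00) for peripubertal against control, and 0.76 (SE 0.36, adjusted p = 0.267) for early life against peripubertal.

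By its 10-spot probe Kdr read 11.50, 11.70, 11.52 and 10.69 in the controls and 11.33, 11.45, 11.68 and 11.39 in the peripubertal mice. The early life mice read 10.49, 10.68, 10.44 and 11.06, and all 4 lay below all 4 peripubertal mice. With this probe in place of the other, the log2 difference for early life against peripubertal was -0.79 (SE 0.28, 95% interval -1.40 to -0.18, adjusted p = 0.176), against 0.76 by the single-spot probe. Against control it was -0.68 for early life (adjusted p = 0.270) and 0.11 for peripubertal (adjusted p = 1.00). This probe was set in place of the other after the values had been seen.

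The 10 copies of that probe are spread over rows 29 to 419 of the array. Every one of the 10 spots had a lower early life than peripubertal mean, with differences of -1.07 to -0.57 on the log2 scale, and no spot had overlapping groups. Against the controls, the early life differences of the 10 spots ran from -0.93 to -0.22, and the groups overlapped at every spot. The 10 spots read the RNA of the same mice, so their likeness adds no replication of the diets. Spots differed within a sample with an SD of 0.20 to 0.46, and 5 of the 10 were measured on all arrays. With those 5 alone the early life against peripubertal difference was -0.88 (adjusted p = 0.149). The single-spot probe has 1 spot per array, so no such check exists for it; the dim neighbours around the member spots that have enough of them departed from the other arrays by -0.17 to 0.21, under the limit of 0.3 set for a patch.

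**Figure D2:**
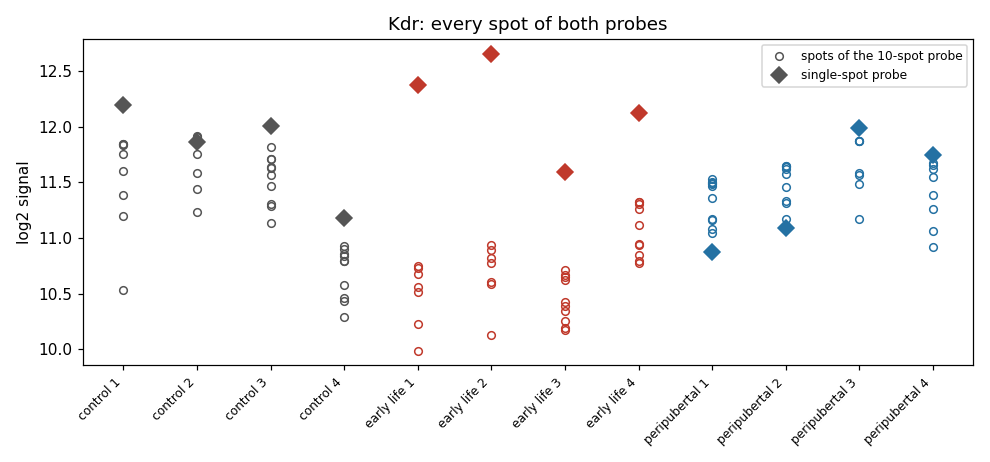
Log2 signal of every Kdr spot in each mouse: open circles are the spots of the 10-spot probe and filled diamonds the single-spot probe. The diamonds stand above the circles in the 4 early life mice and below them in peripubertal mouse 1. In peripubertal mouse 2 the diamond is level with the lowest circle.

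Within a mouse, the single-spot probe exceeded the 10-spot probe by 0.69, 0.16, 0.48 and 0.49 in the controls. The gap was 1.88, 1.98, 1.15 and 1.06 in early life, above every other mouse. It was -0.46, -0.35, 0.31 and 0.35 in the peripubertal mice. In both deficient groups the gap differed between the arrays, with mice 1 and 2 on one and mice 3 and 4 on the other. The gap averaged 1.52 ± 0.48 (SD, n = 4) for early life mice, 0.46 ± 0.22 for controls and -0.04 ± 0.43 for peripubertal mice. What makes the probes differ was not tested.

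Flt1 had a pair of kept probes. Its brightest probe averaged 10.74 ± 0.36 in control, 10.87 ± 0.21 in early life and 11.18 ± 0.22 in peripubertal mice (SD, n = 4), and the groups overlapped. The log2 difference was -0.31 (adjusted p = 0.484) for early life against peripubertal and -0.35 (adjusted p = 0.598) by its second probe. For peripubertal against control the pair gave 0.44 and 0.34, each at an adjusted p of 1.00, and for early life against control 0.13 and -0.0065. The last Flt1 probe was not well above background in any of the 12 channels.

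Tek read 9.06, 8.39, 8.32 and 8.49 in control, 8.62, 7.99, 7.96 and 8.29 in early life, and 8.87, 8.79, 8.89 and 8.91 in peripubertal mice. The early life mice all lay below the peripubertal mice, whose spread was narrow, and overlapped the controls. The log2 difference for early life against peripubertal was -0.65 (SE 0.23, adjusted p = 0.177), and against control -0.35 (adjusted p = 0.466).

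Tie1 read 10.05, 9.58, 9.81 and 9.35 in control, 9.54, 9.23, 9.23 and 9.54 in early life, and 9.63, 9.86, 10.40 and 10.16 in peripubertal mice. Early life again lay below peripubertal without overlap, by -0.63 (SE 0.22, adjusted p = 0.179), and the controls spanned part of both ranges. Against control the difference was -0.31 in early life and 0.31 in peripubertal mice.

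Robo4 read 11.28, 10.99, 11.03 and 10.50 in control, 10.96, 10.87, 10.26 and 10.86 in early life, and 11.19, 11.35, 11.45 and 11.15 in peripubertal mice. The early life and peripubertal groups did not overlap, and the difference was -0.55 (SE 0.24, adjusted p = 0.244), or -0.35 without early life mouse 3. Against control it was -0.21 in early life (adjusted p = 0.688) and 0.34 in peripubertal mice (adjusted p = 1.00).

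**Figure D3:**
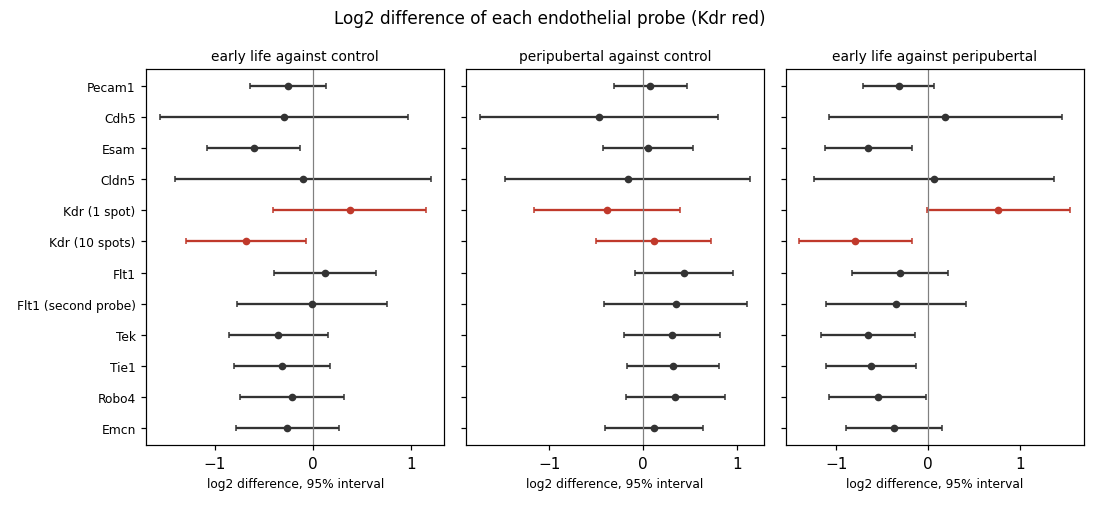
Log2 difference of each kept endothelial probe with its 95% interval, in a panel for each comparison; Kdr is red. Between early life and peripubertal mice the single-spot Kdr probe lies at 0.76 and the 10-spot Kdr probe at -0.79, beside Tek at -0.65, Tie1 at -0.63 and Robo4 at -0.55.

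Whether Kdr departs from the Tie receptors and Robo4 was asked within each mouse, as Kdr minus each of them, with exact two-sided permutation tests over samples and 9 tests adjusted together. The question was set with earlier results of these data known, so these p-values are not those of a comparison fixed in advance. With 4 mice against 4 the smallest p is 0.0286. Mice of 1 array are not independent, which these tests do not take into account. By the single-spot probe, Kdr minus Tie1 averaged 2.80 ± 0.46 (SD, n = 4) for the early life mice, 2.11 ± 0.20 for the controls and 1.41 ± 0.20 for the peripubertal mice. The 3 groups did not overlap. The exact test gave an adjusted p of 0.0367 for each of the 3 comparisons, with differences of 0.69, -0.70 and 1.39.

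Kdr minus Robo4 showed the same order by the single-spot probe, at 1.45 ± 0.23 for the early life mice, 0.86 ± 0.13 for the controls and 0.14 ± 0.50 for the peripubertal mice. All 3 comparisons again gave an exact adjusted p of 0.0367. Kdr minus Tek was 3.97 ± 0.47, 3.24 ± 0.43 and 2.56 ± 0.50 in that order of groups. Early life exceeded peripubertal by 1.41 (exact adjusted p = 0.0367), while the differences from control of 0.73 and -0.69 did not pass (exact adjusted p = 0.0643 and 0.114). Averaged by array, 2 against 2, the same differences have a smallest possible p of 0.333.

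By the 10-spot probe none of the 9 differences passed. Kdr minus Tek, Tie1 and Robo4 differed between early life and peripubertal mice by -0.14, -0.16 and -0.24, with exact adjusted p-values of 0.743, 0.514 and 0.514. Against control the early life differences were -0.33, -0.37 and -0.47, each at an exact adjusted p of 0.514. Leaving out control mouse 1, 2 or 4 left none of the 9 single-spot differences past the threshold. For the 3 differences between early life and peripubertal mice, which hold no control, the values were then the same and only the joint adjustment moved, to an exact adjusted p of 0.0514. Leaving out control 3, early life 2, or peripubertal 1 or 2 ended 2, 1, 1 and 1 of them, with no change of sign. A departure of Kdr from these receptors therefore appeared with the single-spot probe and was not detected with the 10-spot probe.

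**Figure D4:**
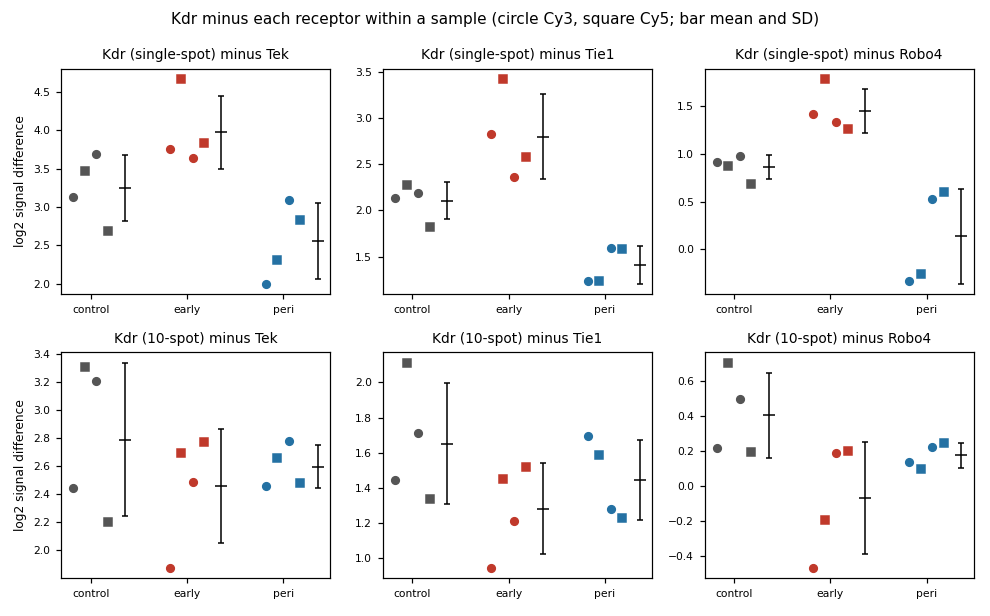
Kdr minus Tek, Tie1 and Robo4 within each mouse, in log2 units, by the single-spot probe (upper row) and the 10-spot probe (lower row); bars are the mean and SD of 4 mice. In the upper row all early life mice lie above all peripubertal mice, and in the lower row the groups overlap.

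Likeness of profile, taken from the same values and so not separate evidence, gave the same contrast between the probes. Over the 12 samples, each gene centred on its own mean, 11636 genes were ranked by root mean square distance from Kdr. Among the genes nearest the single-spot profile were Gm7935, Vmn1r87, Tagln and Igsf3, at 0.12 to 0.20, and the other 9 members ranked from 4924 (Flt1) to 10737 (Esam), with Robo4, Tie1 and Tek at 7319, 8045 and 9696. The genes nearest the 10-spot profile were Col4a2, Slc25a28, Col6a2, Mmrn2 and C130074G19Rik, at 0.20 to 0.23. From that profile Robo4 ranked 23, Tie1 30 and Tek 579. Of the other members, Esam ranked 21, Pecam1 130, Flt1 549 and Emcn 1432, and Cdh5 and Cldn5 lay far from it at 10700 and 10967. Samples on 1 array share their hybridisation.

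Among the junction and adhesion genes, Esam, an adhesion molecule of endothelial tight junctions, read 9.87, 10.12, 9.94 and 9.56 in control, 9.16, 8.81, 9.50 and 9.61 in early life, and 10.26, 9.77, 9.93 and 9.74 in peripubertal mice. Early life lay below peripubertal without overlap, by -0.65 (SE 0.22, adjusted p = 0.159), and was -0.60 from control (SE 0.22, adjusted p = 0.235). Esam, Tek, Tie1 and Robo4 were thus the 4 of 10 genes whose early life mice all lay below the peripubertal mice, where 9.95% of all 18242 genes did so. The same 4 had an unadjusted p under 0.05, where 8.77% of all genes did so in that direction.

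Cdh5 encodes VE-cadherin, the main adhesion protein of endothelial junctions. It read 7.56 in peripubertal mouse 1 and 9.85, 10.02 and 9.81 in the others, against 9.51 to 10.18 in control and 8.82 to 9.87 in early life. The difference of peripubertal from control was -0.48 (adjusted p = 1.00), and 0.10 without that mouse. Early life differed from peripubertal by 0.19, and by -0.39 without it.

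Pecam1, the platelet-endothelial adhesion molecule, averaged 8.81 ± 0.26 in control, 8.56 ± 0.28 in early life and 8.88 ± 0.09 in peripubertal mice (SD, n = 4). Emcn, the endothelial sialomucin endomucin, averaged 9.47 ± 0.26, 9.21 ± 0.31 and 9.59 ± 0.15 in the same order. Their early life against peripubertal differences were -0.32 (adjusted p = 0.331) and -0.37 (adjusted p = 0.398), with overlapping groups. Cldn5, a claudin of the tight junction, ranged from 7.43 to 9.52 within the early life group alone and was well above background in 11 of 12 channels, and its largest difference between groups was -0.16 (SE 0.59).

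By channel, the Cy5 minus Cy3 means of the kept member probes ran from -0.17 for Esam to 0.39 for Cdh5, the latter resting on the low Cy3 value of peripubertal mouse 1.

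Of 105 companion genes of vessels, grouped by ligand, pathway and vessel type, 96 were kept. None passed the threshold in any comparison, of 94, 95 and 93 tested for early life against control, peripubertal against control and early life against peripubertal. In the last, 55 were negative and 38 positive, with a median of -0.09 beside 0.03 over all genes. The smallest p-values there belonged to Dll4, a Notch ligand of arterial and sprouting endothelium, at -0.76 (SE 0.12, adjusted p = 0.0509), Sox18, an endothelial transcription factor, at -1.98 (SE 0.33, adjusted p = 0.0531), and Igfbp3, at -1.59 (SE 0.32, adjusted p = 0.0690). These did not pass. Dll4 was dim, at a mean of 6.98 in early life and 7.74 in peripubertal mice. The Flt1 probe that was never well above background averaged 6.87 and 6.72 in those groups. Against control in early life the smallest p-values were those of Dll4 at -0.59 (adjusted p = 0.114), Sox18 at -1.47 (adjusted p = 0.133) and Flt4 at -0.57 (adjusted p = 0.151). For peripubertal against control they were Notch4 at 0.35, Vegfb at 0.45 and Igfbp3 at 0.61, each at an adjusted p of 1.00.

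The ligand Vegfa averaged 11.05 ± 0.48 in control, 10.61 ± 0.39 in early life and 11.19 ± 0.09 in peripubertal mice, and early life differed from peripubertal by -0.59 (adjusted p = 0.292). Its co-receptor Nrp1 differed by -0.92 (SE 0.24, adjusted p = 0.115) and Flt4, a further VEGF receptor, by -0.57 (SE 0.15, adjusted p = 0.115). Flt4 was well above background in 9 of 12 channels and averaged 7.17 in early life mice. The other VEGF ligands had both signs, with Vegfb at -0.72, Pgf at -0.15, Vegfc at 0.63 and Vegfd at 1.33 (adjusted p = 0.134, 0.611, 0.244 and 0.178). Of the angiopoietins, Angpt1 differed by 0.77 (adjusted p = 0.289), Angpt2 by 0.39 (adjusted p = 0.529) and Angpt4 by -0.05 (adjusted p = 0.872). Slit2, a ligand of Robo receptors, differed by 0.51 (adjusted p = 0.158). Ptprb, the endothelial phosphatase that restrains Tek, had 2 kept probes, of which only the brighter is reported here. That probe had values in 2 of 4 early life mice, of 1 array, and differed by -0.10. Plvap, which forms the diaphragms of fenestrae, also had 2 kept probes, of which only the brighter is reported here. The brighter Plvap probe lost all 4 early life values and those of controls 1 and 2 to outlier flags. It read 13.28 and 12.11 in the other 2 controls, which share an array, and 12.81 to 13.66 in the 4 peripubertal mice, a difference of 0.57 (adjusted p = 1.00).

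Genes of other cells were examined beside these, and none of them passed the threshold. All 7 kept red cell genes were lower in early life than in peripubertal mice, with a median of -1.72, and all 10 macrophage genes, with a median of -0.63. The summed linear signal of the 5 red cell genes measured in all samples was 34700 to 191000 in control, 24400 to 82700 in early life and 95600 to 261000 in peripubertal mice. That of 9 macrophage genes was 6570 to 13200, 6130 to 8800 and 7390 to 15400. Pericyte and smooth muscle genes had a median of -0.18, with 6 of 8 negative, and pituitary hormone genes 0.06, with 4 of 9 negative. The medians were -1.38 for 5 neutrophil genes, -0.29 for 3 platelet genes, 0.09 for 7 fibroblast genes and 0.25 for 5 folliculostellate and stem cell genes. The part of these cells in the endothelial values was not tested.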

How the data were processed

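Per the file headers, spots of the Agilent 2-colour arrays were quantified by Agilent's Feature Extraction, release 11.0.1.1. The deposited spot intensities and well-above-background and outlier flags (other values) were used. Saturation flags were counted but removed no spot. Per the labels, total RNA was amplified and labelled with Cy3 or Cy5. From the intensities, normexp correction (offset 50), loess within arrays and Aquantile scaling between them gave log2 values in R 4.3.3 with limma 3.58.1. Outlier spots were left out and spots of a probe averaged. Probes well above background in at least 4 of 12 channels were kept, and the brightest stood for a gene (19090 genes). In the limma model diet and dye were fixed and the array was random (correlation 0.342, 8 residual and 3.38 prior degrees of freedom). P-values were adjusted by Benjamini-Hochberg over all genes. The deposited log2 value table, each column with a median of 0, served as an alternative between the deficient diets only, with columns assigned to the channel they equal; its 4 control columns matched no scanned channel and were not used.

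The members, the lists and the comparison of Kdr with Tek, Tie1 and Robo4 were chosen with earlier results of these data known. Named are all members and their probes, 8 fixed companions, the companions past the threshold or the 3 of smallest p, and the 5 genes nearest Kdr, of which 1 is not reported here; the exchange of the Kdr and Flt1 probes and the genes nearest the 10-spot Kdr probe were added after values were seen. Labels call the mice biological replicates. The number of arrays limits the precision. The fit was tested on simulated data with known answers, in which genes were changed in the early life group only. It recovered 63% of log2 changes of 1 in early life against control and 68% in early life against peripubertal. False calls were 10 of 173 and 13 of 181 in those comparisons.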

Additional observations from a re-analysis of the deposited data

Results flagged for a closer look

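In 36 groups of 4 mice (12 kept probes in 3 diets), 2 held a sample far from the others, where chance flags about 1 in 20 groups. For Cdh5 in the peripubertal group, mouse 1 at 7.56 stood apart from 9.81 to 10.02, a gap of 0.915 of the group's range. For Robo4 in the early life group, mouse 3 at 10.26 stood apart from 10.86 to 10.96, a gap of 0.861 of the range; without it the early life against peripubertal difference of Robo4 was -0.35 in place of -0.55.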

How the results depend on the processing

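No member passed the threshold under any alternative, and Pecam1, Emcn, Tek and Tie1 kept their sign in all of them. With the 10-spot probe Kdr reversed to -0.68 (early life against control), 0.11 (peripubertal against control) and -0.79 (early life against peripubertal), and with its 5 complete spots to -0.76, 0.12 and -0.88. With the mean of kept probes Kdr reversed to -0.15 in early life against control and -0.0148 in the other case (Kdr, early life against peripubertal). Flt1 reversed to -0.0065 by its second probe and Robo4 to 0.012 under median centring (early life against control). Cldn5 reversed to -0.14 with processed signals (early life against peripubertal). Leaving out 1 mouse turned Cldn5 to 0.10 (control 1), 0.18 (control 4), 0.27 (early life 2) and 0.29 (early life 3) against control in early life, to 0.03 (control 1) and 0.11 (control 4) in peripubertal, and to -0.40 (early life 1) and -0.23 (early life 4) between deficient diets. It turned Esam in peripubertal against control to -0.02 (control 1), -0.02 (control 4) and -0.043 (peripubertal 1), Flt1 to -0.051 (control 4, early life against control), and Cdh5 to 0.10 (peripubertal 1, against control), -0.03 (early life 1) and -0.39 (peripubertal 1). Over all 12 omissions Cldn5 ran from -0.56 to 0.29, -0.42 to 0.11 and -0.40 to 0.45 in the order of comparisons above, Flt1 from -0.051 to 0.25 (early life against control), Esam from -0.043 to 0.18 (peripubertal against control), and Cdh5 from -0.77 to 0.10 (peripubertal against control) and -0.39 to 0.48 (between deficient diets). The causes were not tested.

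Kdr minus Tek, Tie1 and Robo4 by the 10-spot probe reversed to -0.33, -0.37 and -0.47 (early life against control) and -0.14, -0.16 and -0.24 (early life against peripubertal), and was -0.20 and -0.23 for Tie1 and Robo4 in peripubertal against control. With its 5 complete spots these were -0.41, -0.45 and -0.55, then -0.23, -0.25 and -0.33, then -0.19 and -0.22. With the mean of kept probes they no longer passed, at 0.16 (Tie1) and 0.057 (Robo4) in early life against control, -0.45 and -0.48 in peripubertal against control, and 0.64, 0.61 and 0.53 between deficient diets. As array means, and with the replicate number as a block, the values stayed at 0.69 and 0.59, -0.70 and -0.72, and 1.41, 1.39 and 1.31, but the smallest p these designs allow is above the threshold. Kdr minus Tek in early life against control passed under median centring, at 0.96, and without control 3, at 0.87. Leaving out each mouse gave Tek 0.50 to 0.87, Tie1 0.48 to 0.84 and Robo4 0.48 to 0.65 (early life against control), Tek -0.87 to -0.50, Tie1 -0.79 to -0.64 and Robo4 -0.88 to -0.57 (peripubertal against control), and Tek 1.18 to 1.59, Tie1 1.18 to 1.54 and Robo4 1.16 to 1.46 between deficient diets; without control 1, 2 or 4 none of the 9 passed (those between deficient diets only through the joint adjustment), and without control 3 (Tie1 in early life and Robo4 in peripubertal against control), early life 2 (Tek between deficient diets) or peripubertal 1 or 2 (Tie1 against control) the differences named no longer did. Same-numbered mice did not deviate together (correlations of -0.29 to 0.06 over 12 pairs, with group and dye means taken out). They share a dye, and taking out the dye means lowers these correlations, so a pairing by number could be missed.

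The counts of genes called over the whole array, 18, 4 and 24 in the order early life against control, peripubertal against control and early life against peripubertal, moved widely. For early life against control they were 35 with processed signals, 4 with median centring, 0 with probes above background in all channels, 125 with the mean of probes, 11 with only the samples compared and 10 with the replicate block. For peripubertal against control they were 20 with the mean of probes, 10 with only the samples compared, and 0 with offset 16, processed signals, quantile scaling, median centring, no filter, the strict filter, array means or the replicate block. Between deficient diets they were 56 with offset 16, 6 with median centring, 1 with the strict filter, 151 with the mean of probes, 39 with array means, 66 with only the samples compared, 6 with the replicate block and 87 with the value table. Leaving out each mouse gave 6 to 280, 0 to 3 and 6 to 751, the highest without early life 3 (280 and 751) and control 3 (227 and 242).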
